A study of Mus musculus with 6 samples.

Results

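Genes of the pancreatic duct and of simple epithelium were followed in RNA from whole mouse islets, the clusters of hormone cells within the pancreas. The members are 33 genes named for duct or simple epithelial expression, and each was found by its symbol in the deposited table of 55536 genes. Control mice were Klf4+/+;Gcg-iCre and knockout mice Klf4fl/fl;Gcg-iCre, so both groups carried the Cre driver, which acts in glucagon-producing alpha cells, and the genotypes differed in the floxed Klf4 alleles. Each group had 3 libraries of polyadenylated RNA from C57B1/6J mice, whose ages and sexes the labels do not give. Nothing in the labels says whether the libraries came from separate mice, so p-values measure the spread between these libraries.

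The pancreatic duct is a simple epithelium that drains the digestive juice made by acinar cells and adds bicarbonate and water to it. Its cells are held together by claudin tight junctions, are braced by keratin filaments, carry a primary cilium and depend on transcription factors such as SOX9 and HNF6. Isolated islets usually carry some duct and acinar tissue with them. Several of the members are also made outside ducts: KRT8 and KRT18 in islet endocrine cells, AQP1 in endothelium, osteopontin (Spp1) in macrophages and lipocalin 2 (Lcn2) in neutrophils.

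Klf4, the targeted gene, is given first. Its normalized counts were 3148, 2879 and 2015 in the controls (replicates 1, 2 and 3, the order used throughout) and 2340, 2540 and 2277 in the knockouts. The groups overlapped, with a log2 difference of knockout over control of -0.17 ± 0.15 (SE, DESeq2 adjusted p = 0.774). Alpha cells are only part of an islet, so a whole-islet count checks the labels only in part. Library totals ran from 101277200 to 110243918 counts. Xist had 73469 to 108994 counts in the control and 12 to 32 in the knockout libraries, and the Y-linked Ddx3y had 0 counts in each control and 5476 to 6633 in each knockout library. Genotype and sex cannot be told apart here, which holds for every difference given. Since whole islets were sequenced, fewer cells of a type and less RNA per cell cannot be told apart either.

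Of the 33 genes, 5 were higher in the knockout libraries and 0 were lower at a Benjamini-Hochberg adjusted p under 0.05 in DESeq2. The 5 were Pigr, Muc1, Cldn3, Aqp1 and Krt7, with log2 fold changes of 0.99, 0.66, 0.37, 0.32 and 0.28. The defining duct markers Krt19, Sox9, Cftr and Spp1 did not pass. All 33 had at least 10 counts in total and were fitted; 31 were given an adjusted p, and Krt20 and Slc26a3 fell under DESeq2's filter on low means. Over all 17797 genes given an adjusted p, 1.53% were higher and 0.657% lower. At an unadjusted p under 0.05 in DESeq2, 7 of the 33 were higher and 0 lower, beside 5.2% and 3.83% of all genes given a p. With edgeR's quasi-likelihood test 0 members passed an adjusted p of 0.05, against 0.115% of all fitted genes, and 7 members had an unadjusted p under 0.05, beside 9.48% of all fitted genes. In DESeq2 fits that left out 1 library, the count of 5 was 2 without control replicate 1 or knockout replicate 3 and 3 without knockout replicate 1, and Muc1 and Pigr were past the threshold in each.

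The promoters of these 5 genes are shown because the genes moved in 1 direction and the floxed gene encodes a zinc finger factor that binds CACCC-type sites. Each is the 250 bases before the RefSeq start, on the plus strand of GRCm38.p6, with CACCC or its reverse complement GGGTG in capitals:
Krt7 promoter: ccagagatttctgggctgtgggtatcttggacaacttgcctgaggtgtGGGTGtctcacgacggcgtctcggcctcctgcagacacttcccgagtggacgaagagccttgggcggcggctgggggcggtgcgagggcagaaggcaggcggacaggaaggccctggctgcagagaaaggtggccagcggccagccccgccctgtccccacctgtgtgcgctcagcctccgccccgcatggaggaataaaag
Aqp1 promoter: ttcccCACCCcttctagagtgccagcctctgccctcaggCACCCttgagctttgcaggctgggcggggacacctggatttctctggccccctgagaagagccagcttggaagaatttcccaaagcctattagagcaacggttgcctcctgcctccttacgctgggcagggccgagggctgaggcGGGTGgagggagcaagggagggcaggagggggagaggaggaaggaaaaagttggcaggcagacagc
Cldn3 promoter: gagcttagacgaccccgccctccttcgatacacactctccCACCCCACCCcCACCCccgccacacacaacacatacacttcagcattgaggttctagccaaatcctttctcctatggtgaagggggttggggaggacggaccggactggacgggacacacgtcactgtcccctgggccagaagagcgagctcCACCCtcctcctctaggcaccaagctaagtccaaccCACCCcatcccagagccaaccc
Muc1 promoter: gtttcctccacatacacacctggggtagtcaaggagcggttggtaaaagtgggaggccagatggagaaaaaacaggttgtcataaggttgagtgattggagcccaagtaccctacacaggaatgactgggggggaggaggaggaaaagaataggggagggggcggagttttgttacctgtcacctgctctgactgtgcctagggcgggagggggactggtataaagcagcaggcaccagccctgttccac
Pigr promoter: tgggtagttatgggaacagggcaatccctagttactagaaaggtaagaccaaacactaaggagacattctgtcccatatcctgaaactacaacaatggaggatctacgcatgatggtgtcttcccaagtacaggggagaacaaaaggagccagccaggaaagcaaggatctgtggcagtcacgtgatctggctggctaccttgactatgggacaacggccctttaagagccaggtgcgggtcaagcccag
Their positions are chr15:101412153-101412402 for Krt7, chr6:55336049-55336298 for Aqp1, chr5:134985964-134986213 for Cldn3, chr3:89228806-89229055 for Muc1 and chr1:130826434-130826683 for Pigr. Cldn3 held 5 matches, Aqp1 3 and Krt7 1, while Muc1 and Pigr, which had the largest fold changes of the 5, held 0 within this window. The motif was searched on both strands and no other motif was searched. It lay in 52.0% of all 32851 RefSeq windows of this length and in 64.5% of the 31 windows of the 27 members found in that table. A match is a run of letters and does not show binding, and the Krt7 window lies inside the longer Krt7 gene of the GENCODE annotation.

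**Figure D1:**
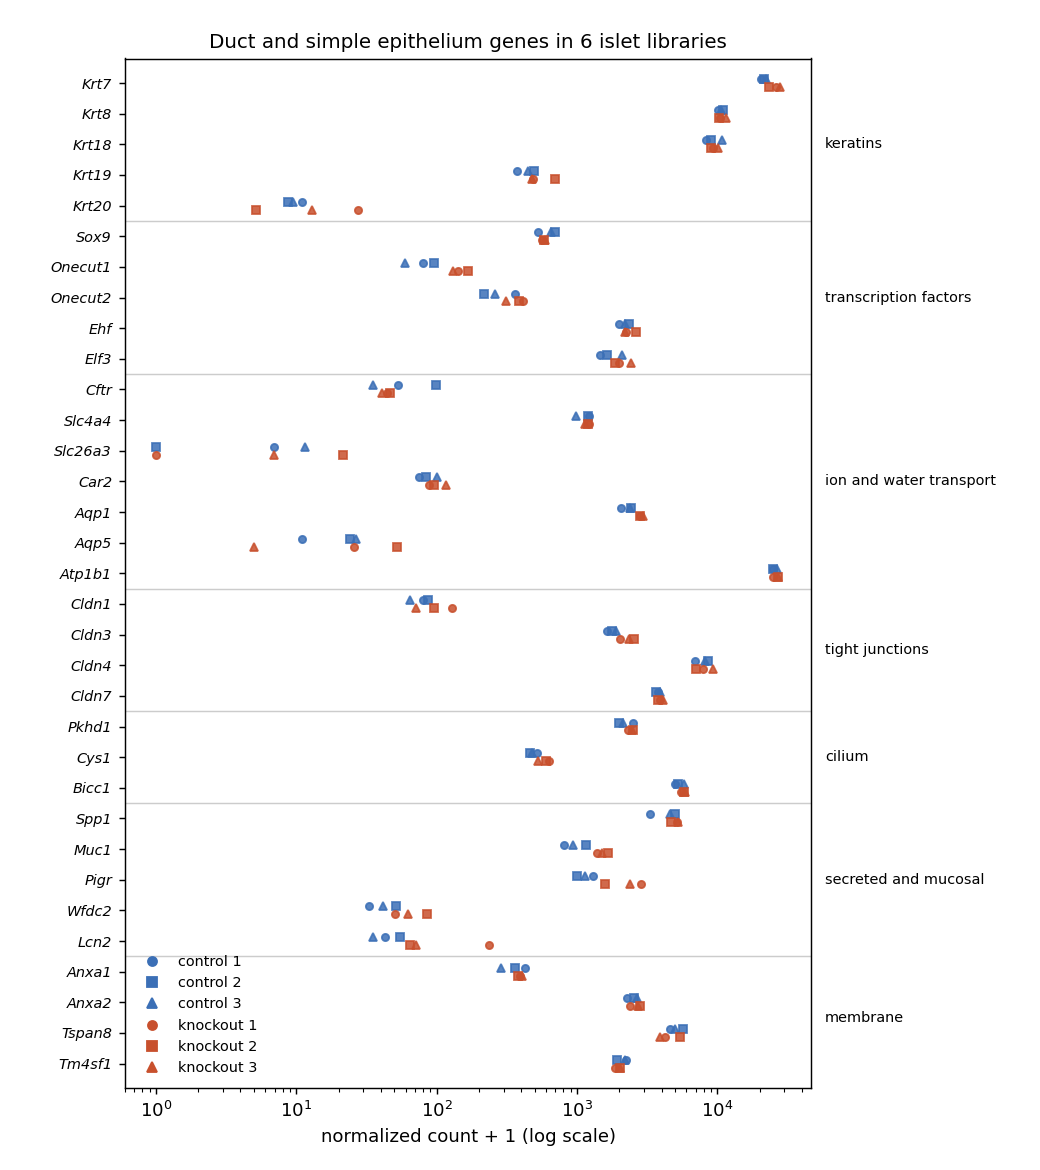
Normalized counts plus 1 (log scale) of the 33 duct and simple epithelium genes in each of the 6 libraries, grouped by role; blue marks are controls, orange marks are knockouts, and the shape gives the replicate. Most genes have overlapping groups, whereas the 3 knockout marks of Muc1, Pigr, Aqp1, Cldn3 and Krt7 lie to the right of their 3 control marks. The same holds for Onecut1, Cys1 and Lcn2, which did not pass the threshold.

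The levels spanned several orders of magnitude. Per length, as TPM (counts divided by the length of a gene's exons and scaled to the same total in every library), the control means were 191 ± 9.87 (SD, n = 3) for Atp1b1, which encodes a sodium pump subunit, 150 ± 15.9 for Krt18 and 124 ± 2.25 for Krt8. Cldn4 followed at 99.7 ± 5.81, then Krt7 at 69.8 ± 1.77 and Tspan8 at 68.9 ± 4.33, and the last 2 did not differ beyond their spread. Spp1 was at 59.8 ± 9.45 TPM. The more duct-restricted genes were far lower, with control means of 5.41 ± 0.505 TPM for Krt19, 3.47 ± 0.317 for Sox9 and 0.180 ± 0.0924 for Cftr. The acinar gene Cpa1, which encodes carboxypeptidase A1, stood at 1068 ± 423 TPM in controls. The summed TPM of all 33 genes ran from 954 to 1002 in control and from 995 to 1113 in knockout libraries, against 480452 to 503996 and 480383 to 484084 for 8 islet endocrine genes, a sum made mostly of insulin transcripts. Among those 8 genes Gcg, the glucagon gene of the targeted alpha cells, alone passed. Its normalized counts were lower in every knockout library than in every control (log2 fold change -0.56 ± 0.13 SE, DESeq2 adjusted p = 0.00332). The Gcg call was lost in edgeR (adjusted p = 0.402) and without knockout replicate 1 (0.144) or 3 (0.0826).

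Among the 5 keratin genes, which encode the intermediate filaments of epithelial cells, 1 rose and none fell. Krt7 (ENSMUSG00000023039, chromosome 15, 101411043 to 101430313, plus strand, GRCm38) stood at 20395, 21480 and 22226 normalized counts in controls and at 26366, 23435 and 27942 in knockouts. Every knockout library lay above every control library, with knockout replicate 2 closest to them. The log2 fold change was 0.28 ± 0.08 (SE, DESeq2 adjusted p = 0.0444). An exon of Gm671 overlaps Krt7 on the opposite strand. Gm671 held 56.6 to 86.6 normalized counts, and the part of this overlap in the Krt7 value was not tested. The Krt7 call was lost in edgeR (adjusted p = 0.315). In DESeq2 it was lost without control replicate 1 (adjusted p = 0.176) or 2 (0.165) and without knockout replicate 1 (0.372) or 3 (0.307). It was also lost without DESeq2's filter on low means (independent filtering).

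Krt8 and Krt18, whose proteins pair to form the filaments of simple epithelia, had groups that overlapped. Krt8 was at 10116, 10899 and 10554 normalized counts in controls and 10517, 10235 and 11443 in knockouts. Its log2 fold change was 0.03, with a 95% interval from -0.12 to 0.18, and that of Krt18 was 0.02, from -0.18 to 0.22. Krt19, the keratin most used to mark ducts, was at 371, 491 and 450 normalized counts in controls and at 486, 699 and 474 in knockouts. Knockout replicate 2 stood above the others and the groups overlapped (log2 fold change 0.34 ± 0.19 SE, DESeq2 adjusted p = 0.525). Krt20, a keratin of gut epithelium, had 4 to 28 counts in a library. The mesothelium also carries simple keratins; Msln, its most abundant listed marker, was at 6543, 7435 and 12962 normalized counts in controls and at 4751, 4755 and 6603 in knockouts, and Wt1 and Bnc1 had 0 to 6 counts in each library. The summed TPM of the 6 mesothelial markers was 52.2 to 95.7 in controls and 35.1 to 51.0 in knockouts, nearly all from Msln. Upk3b had 8 to 50 counts in a library, Upk1b 0 to 8 and Lrrn4 0 to 6. The part of these markers in the keratin values was not tested.

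None of the 5 transcription factor genes passed the threshold. Sox9, which maintains duct identity, was at 530, 697 and 647 normalized counts in controls and at 559, 584 and 594 in knockouts, which fell inside the control range. Its log2 fold change of -0.11 had a 95% interval from -0.39 to 0.17. Onecut1, which encodes HNF6, had 79.4, 95.04 and 58.4 normalized counts in controls and 141, 166 and 129 in knockouts. The groups did not overlap, and the log2 fold change was 0.90 ± 0.29 (SE), yet the DESeq2 adjusted p was 0.0702. It passed without control replicate 2 (1.07, adjusted p = 0.0441) and at a threshold of 0.1, and in no other alternative fit. Over all the alternative fits the log2 fold change of Onecut1 ran from 0.245 to 1.074. Its relative Onecut2 ranged from 217 to 359 normalized counts in controls and from 311 to 409 in knockouts. The epithelial ETS factors Ehf and Elf3 had log2 fold changes of 0.12 ± 0.11 and 0.27 ± 0.15 (SE). Elf3 passed in DESeq2 without control replicate 3, its highest control (0.44, adjusted p = 0.0233).

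Of the 7 genes for ion and water transport, Aqp1 alone passed. Aqp1 (chromosome 6, 55336432 to 55348555, plus strand), a water channel, stood at 2070, 2421 and 2387 normalized counts in controls and at 2819, 2795 and 2974 in knockouts. The knockout values lay close together and above all controls (log2 fold change 0.32 ± 0.09 SE, DESeq2 adjusted p = 0.0324). Leaving out control replicate 1 gave 0.25 (adjusted p = 0.0756), and edgeR gave an adjusted p of 0.234. The call was also lost without knockout replicate 1 (0.213), 2 (0.0816) or 3 (0.226). With the replicate number as a block or with counts halved it was lost too. None of 8 endothelial markers passed, and their summed TPM was 530 to 615 in controls and 579 to 648 in knockouts. Their part in the Aqp1 value was not tested.

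The other 6 transport genes did not pass or had no adjusted p. Cftr, the chloride and bicarbonate channel of the duct, had 51.6, 97.9 and 33.95 normalized counts in controls and 43.5, 45.4 and 39.9 in knockouts, with control replicate 2 alone standing above the rest. Its log2 fold change was -0.51 ± 0.46 (SE) and moved to 0.003 without that library. Over all the alternative fits it ran from -1.721 to 0.003 and passed in none. Slc4a4, the basolateral bicarbonate importer, ranged from 980 to 1211 normalized counts in controls and from 1136 to 1221 in knockouts. Car2, a carbonic anhydrase, ranged from 73.4 to 99.7 and from 86.9 to 115 (log2 fold change 0.21, 95% interval from -0.36 to 0.79). Atp1b1, the most abundant gene of the group, was at 24906, 24849 and 26756 normalized counts in controls and at 24959, 26983 and 27105 in knockouts (log2 fold change 0.05, 95% interval from -0.09 to 0.19). Aqp5 had 4 to 50 counts in a library. Slc26a3 had 0 counts in control replicate 2 and in knockout replicate 1 and at most 20 elsewhere, and 0 counts allow up to 3.

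Among 4 claudin genes, which encode tight junction strands, Cldn3 rose. Cldn3 (chromosome 5, 134986214 to 134987472, plus strand) stood at 1633, 1787 and 1904 normalized counts in controls and at 2029, 2527 and 2333 in knockouts. The groups were apart, by a small gap between control replicate 3 and knockout replicate 1 (log2 fold change 0.37 ± 0.11 SE, DESeq2 adjusted p = 0.0423). The call was lost in edgeR (adjusted p = 0.283). It was lost without control replicate 1 (adjusted p = 0.184) or 2 (0.172) and without knockout replicate 2 (0.261) or 3 (0.236). It was lost too without independent filtering and with counts halved. An exon of Wbscr25 overlaps Cldn3 on the opposite strand, with 24.8 to 41.3 normalized counts. Cldn4, the most abundant claudin here, was at 6945, 8531 and 8175 normalized counts in controls and at 7909, 7087 and 9272 in knockouts, and the groups overlapped. Cldn7 had a log2 fold change of 0.04, with a 95% interval from -0.11 to 0.19, and Cldn1 ranged from 63.7 to 126.6 normalized counts over the 6 libraries.

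The 3 genes tied to the primary cilium or to cystic disease did not pass. Bicc1, an RNA-binding protein gene, was the most abundant, at 4984, 5221 and 5774 normalized counts in controls and at 5483, 5769 and 5844 in knockouts. Pkhd1, which encodes fibrocystin, had a log2 fold change of 0.14 ± 0.11 (SE). Cys1, which encodes cystin, lay between 464 and 521 normalized counts in controls and between 526 and 634 in knockouts, so that the groups were apart, yet the log2 difference was only 0.27 ± 0.14 (SE, DESeq2 adjusted p = 0.457).

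The 5 secreted and mucosal genes held the 2 members with the largest fold changes past the threshold. Pigr (ENSMUSG00000026417, chromosome 1, 130826684 to 130852249, plus strand), the receptor that carries dimeric IgA across epithelia, stood at 1290, 1004 and 1148 normalized counts in controls and at 2852, 1588 and 2395 in knockouts. Every knockout library lay above every control, with knockout replicate 2 the lowest of them. The mean went from 1148 ± 143 to 2279 ± 640 (SD, n = 3). On the log2 scale the difference was 0.99 ± 0.18 (SE, DESeq2 adjusted p = 2.35e-05). Pigr passed in each of the 6 DESeq2 fits that left out 1 library, where the log2 fold change ran from 0.80 to 1.19. In edgeR its adjusted p was 0.172.

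Muc1 (ENSMUSG00000042784, chromosome 3, 89229057 to 89233381, plus strand), a mucin of the apical membrane, stood at 807, 1158 and 938 normalized counts in controls and at 1392, 1671 and 1517 in knockouts. The groups were apart, and replicate 2 was the highest of each. The log2 fold change was 0.66 ± 0.14 (SE, DESeq2 adjusted p = 0.00100), it stayed between 0.54 and 0.81 when any 1 library was left out, and it passed in each of those 6 fits. In edgeR the adjusted p was 0.186.

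Spp1, the gene of the matrix phosphoprotein osteopontin and the most abundant of the secreted group, was at 3319, 4974 and 4608 normalized counts in controls and at 5167, 4650 and 5198 in knockouts. Control replicate 1 was low, and the groups overlapped (log2 fold change 0.22 ± 0.13 SE, DESeq2 adjusted p = 0.583). Lcn2, an iron-siderophore binding protein, had 41.7, 53.8 and 33.95 normalized counts in controls and 236, 63.9 and 69.9 in knockouts. The groups were apart, but knockout replicate 1 alone made most of the difference: the log2 fold change was 1.52 ± 0.51 (SE, DESeq2 adjusted p = 0.0865) with it and 0.63 without it (0.926). Without knockout replicate 2 it was 1.83 (0.0496). Neutrophil markers were at or near 0, with 0 counts of Mpo in all 6 libraries and at most 20 counts of S100a9. Of 8 macrophage markers, Cd68 and C1qb passed in DESeq2, where 1.53% of all genes were higher, with log2 fold changes of 0.53 ± 0.16 and 0.40 ± 0.10 (SE, adjusted p = 0.0416 and 0.00854). Neither passed in edgeR (adjusted p = 0.314 and 0.203) or without knockout replicate 1 (0.456 and 0.182) or 3 (0.222 and 0.0641), and Cd68 did not pass without control replicate 1 (0.175) or 2 (0.102) or without independent filtering (0.0576). C1qa, the most abundant of the 8, had 129 ± 15.4 TPM in controls and 107 ± 14.8 in knockouts (SD, n = 3), where the log2 difference was -0.27 ± 0.13 (SE, DESeq2 adjusted p = 0.348). The summed TPM of the 8, most of it from C1qa, was 177 to 209 in controls and 179 to 205 in knockouts. Their part in the Spp1 and Lcn2 values was not tested. Wfdc2, a secreted protease inhibitor-like protein, ranged from 31.7 to 49.9 and from 49.1 to 84.6 normalized counts.

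The 4 membrane-associated genes did not pass and had the lowest median log2 fold change of the role groups, -0.01. Tspan8, a tetraspanin and the most abundant by count, was at 4625, 5653 and 5021 normalized counts in controls and at 4222, 5392 and 3914 in knockouts. Its log2 fold change was -0.18, with a 95% interval from -0.42 to 0.07. Tm4sf1, which is also made by endothelium, had a log2 fold change of -0.10 ± 0.10 (SE). The annexins Anxa1 and Anxa2, which bind membrane phospholipids, had values of 0.13 ± 0.18 and 0.08 ± 0.10. Collagen-producing cells also make annexins; of 9 mesenchymal markers Col1a1, Col1a2, Col3a1, Pdgfra and Dcn were higher past the threshold in DESeq2, beside 1.53% of all genes, Col1a1 by a log2 fold change of 0.96 ± 0.12 (SE). In edgeR 3 of these 5 passed, without Col3a1 (adjusted p = 0.0511) and Dcn (0.16). The summed TPM of the 9 was 308 to 335 in controls and 423 to 434 in knockouts. Their part in the annexin values was not tested.

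**Figure D2:**
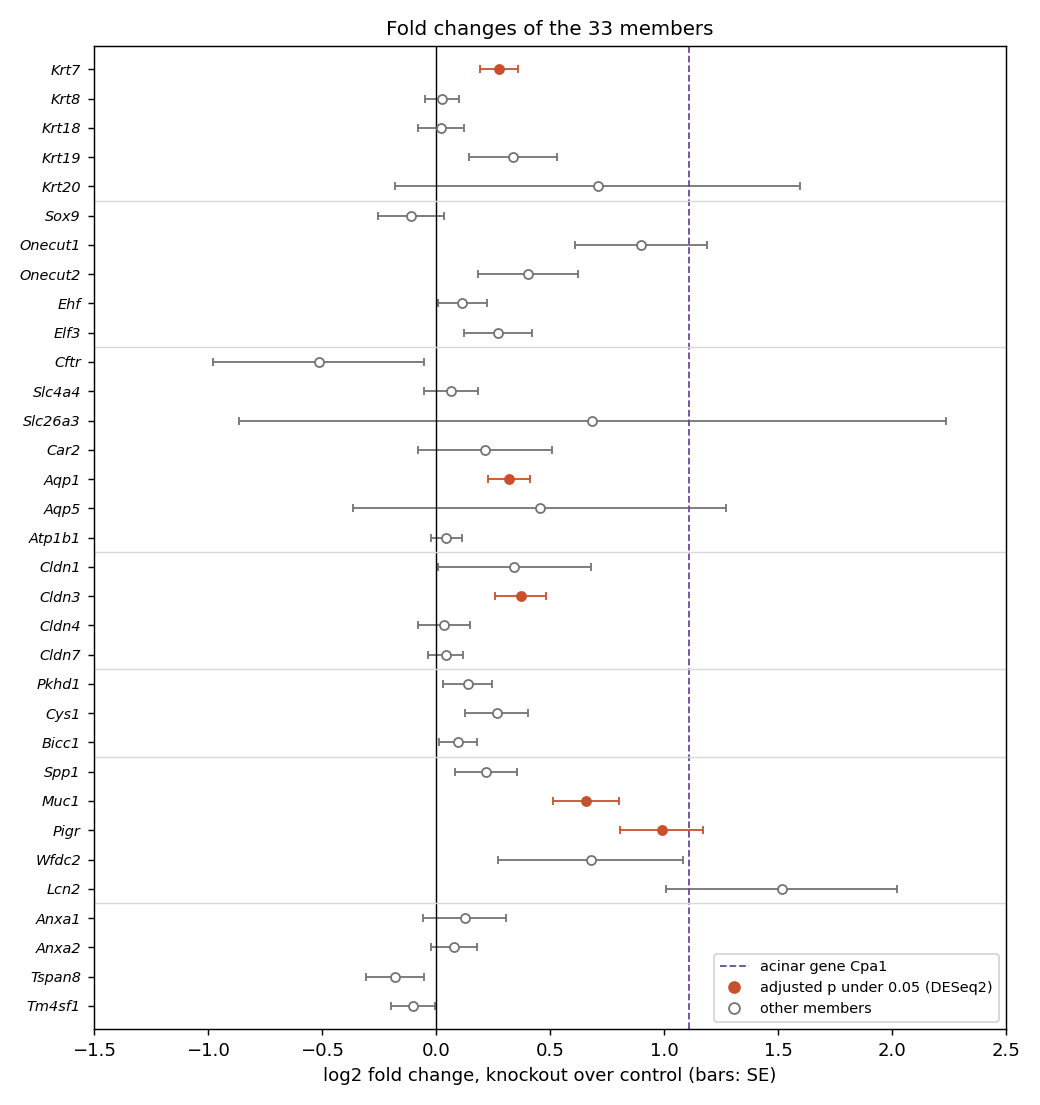
Log2 fold change of knockout over control for each of the 33 genes, with its SE from DESeq2; filled orange points have an adjusted p under 0.05, and the dashed line marks the acinar gene Cpa1 at 1.11. The points of the 5 genes past the threshold lie between 0.28 and 0.99, and Sox9, Cftr, Tspan8 and Tm4sf1 lie below 0.

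The members were chosen with earlier results of these data known, so the counts in this paragraph describe the list and test nothing. As a list, 29 of the 33 genes had a positive and 4 a negative log2 fold change. Their median was 0.22 beside -0.002 over all fitted genes. Of the 23 further duct genes given below, 11 had a positive and 10 a negative value, with a median of 0.02. For the 30 genes with a mean of at least 50 normalized counts the median was 0.18. Of these 30, 8 had every knockout library above every control and 0 had every knockout below, where 9.42% and 8.54% of all 15811 genes at that level did. The 8 were the 5 genes past the threshold with Onecut1, Cys1 and Lcn2. Control replicate 1 was the lowest of the 6 libraries for 16 of the 30 genes (53.3%), against 15.0% of all genes. Knockout replicate 3 was the highest for 10 of the 30 (33.3%, against 14.5%) and control replicate 3 for 1 (3.33%, against 25.6%). The low values in control replicate 1 were thus spread over many members.

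Duct genes were then set against acinar tissue in the same libraries. Cpa1 stood at 67561, 121079 and 56070 normalized counts in controls and at 165163, 212977 and 149832 in knockouts. Every knockout library lay above every control, but control replicate 2 lay closer to knockout replicate 3 than to the other controls. The log2 fold change was 1.11 ± 0.39 (SE, DESeq2 adjusted p = 0.113). Of 15 acinar genes, 14 had a positive log2 fold change and the median of the 15 was 1.03. Every knockout lay above every control for 13 of the 15, beside 9.42% of all genes, and 14 had an unadjusted p under 0.05 in DESeq2 and 14 in edgeR, all higher. Ptf1a alone passed after adjustment in DESeq2 (1.34 ± 0.35 SE, adjusted p = 0.0122), though not without knockout replicate 1 (0.2), 2 (0.0869) or 3 (0.0548), and 0 passed in edgeR. The summed TPM of the 15 was 9662 to 18840 in controls and 25093 to 34028 in knockouts.

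Relative to Cpa1, the 4 duct markers were lower in each knockout library than in each control. The log2 ratio of Sox9 to Cpa1, taken within each library with 0.5 added to both counts, was -6.99, -7.44 and -6.44 in controls and -8.21, -8.51 and -7.98 in knockouts. The groups did not overlap, and the mean difference of knockout minus control was -1.28. It was -1.55 for Cftr, -0.94 for Spp1 and -0.85 for Krt19, again without overlap. The exact two-sided permutation test gave p = 0.1 for each of these 4 ratios, also after Benjamini-Hochberg adjustment over the 4, and 0.1 is the smallest value that 3 against 3 allows. Of the 30 genes with a mean of at least 50 normalized counts, 18 had ratios that were lower in every knockout library, 12 overlapped, and 0 were higher in every knockout. Over all 15810 genes at that level other than Cpa1, 85.1% had ratios lower in every knockout and 0.0949% higher, so a lower ratio is what most genes gave and is no property of the duct genes. These ratios share the Cpa1 count as denominator and are not independent of each other. The 12 included Pigr, Muc1, Cldn3 and Krt7, and Lcn2 alone had a positive mean difference (0.08).

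**Figure D3:**
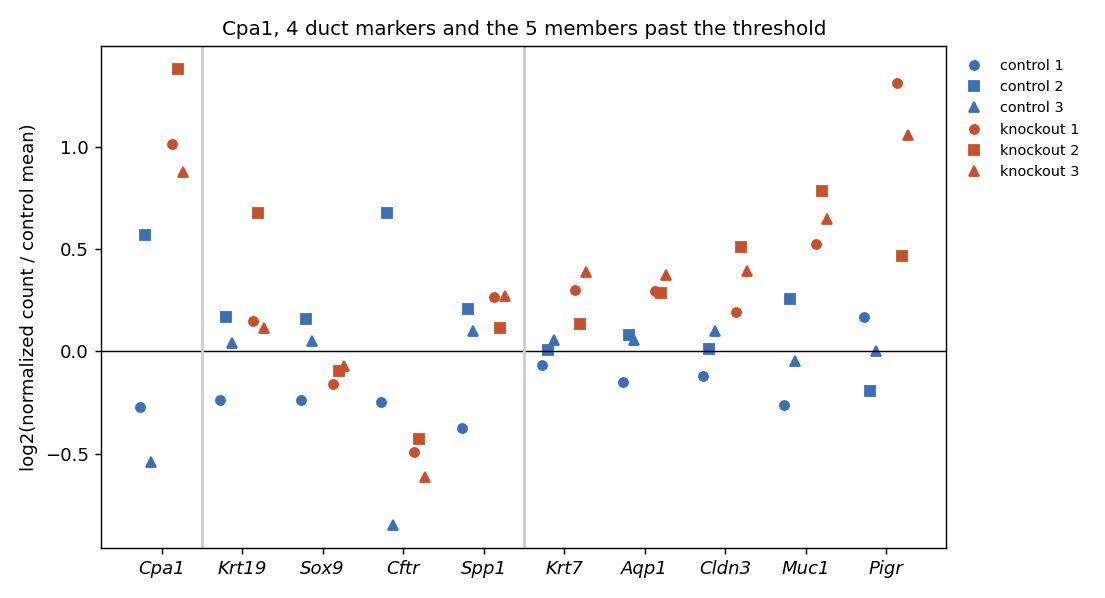
Normalized count of each library over the control mean, on a log2 scale, for Cpa1, for 4 duct markers and for the 5 genes past the threshold; blue marks are controls, orange marks are knockouts, and the shape gives the replicate. Cpa1 and Muc1 are highest in replicate 2 of each group, whereas Pigr is lowest there and the knockout values of Sox9 lie within the control range.

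Within the groups, the order of the libraries was compared with that of Cpa1. In Cpa1 the order from high to low was replicate 2, 1, 3 in both groups, and 8 of 14 other acinar genes (57.1%) had this order. Onecut1 and Cftr were the 2 of 30 members (6.67%) that had it, against 3.61% of all genes. Pigr ran the other way, with replicate 2 the lowest of each group. With the log2 Cpa1 level added to the DESeq2 fit as a covariate, Pigr alone of the 5 passed (log2 fold change 1.48 ± 0.33 SE, adjusted p = 0.00166). Muc1 then had a value of 0.25 ± 0.23 (adjusted p = 0.781), Krt7 of 0.39 ± 0.15 (0.206), Cldn3 of 0.33 ± 0.22 (0.633) and Aqp1 of 0.28 ± 0.18 (0.612). Cpa1 divides the libraries as genotype does, the errors of all 5 genes were wider in this fit, and it was chosen after the values were seen.

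A further 23 duct genes were read for comparison, covering transcription, secretin signalling, anion transport, junctions and cilia. Of these, 20 were given an adjusted p, 1 was higher, 0 were lower, and an unadjusted p under 0.05 was reached by 3 in DESeq2, 2 higher and 1 lower, and by 2 in edgeR, beside 5.2% of all genes higher and 3.83% lower in DESeq2 and 9.48% in edgeR. The gene past the threshold was Tff2, a trefoil peptide secreted with mucus, measured at 1835, 2935 and 1755 normalized counts in controls and at 4167, 5211 and 3718 in knockouts. The groups were apart, and replicate 2 was again the highest of each, as in Muc1 and Cpa1 (log2 fold change 1.01 ± 0.29 SE, DESeq2 adjusted p = 0.0314). The Tff2 call was lost in edgeR (adjusted p = 0.172), without control replicate 3 (0.87, adjusted p = 0.0703), knockout replicate 1 (0.245) or knockout replicate 3 (0.0742), and with Cpa1 as a covariate it was 0.16 ± 0.15. The other 2 are named after their values were seen. Hes1, a transcription factor of the Notch pathway, had 982, 1300 and 1379 normalized counts in controls and 964, 802 and 903 in knockouts. Every knockout library lay below every control, with control replicate 1 close to knockout replicate 1 (log2 fold change -0.46 ± 0.15 SE, DESeq2 adjusted p = 0.0735). Without control replicate 1 it was -0.59 (0.000749). Pkd1, which encodes polycystin 1 of the cilium, overlapped between the groups (0.23 ± 0.11 SE, adjusted p = 0.372), and without control replicate 1, its highest control, it was 0.38 (2.06e-06). The median log2 fold change of the 21 fitted genes of this list was 0.02, and Tff1 and Cldn18 had 0 counts in all 6 libraries.

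**Figure D4:**
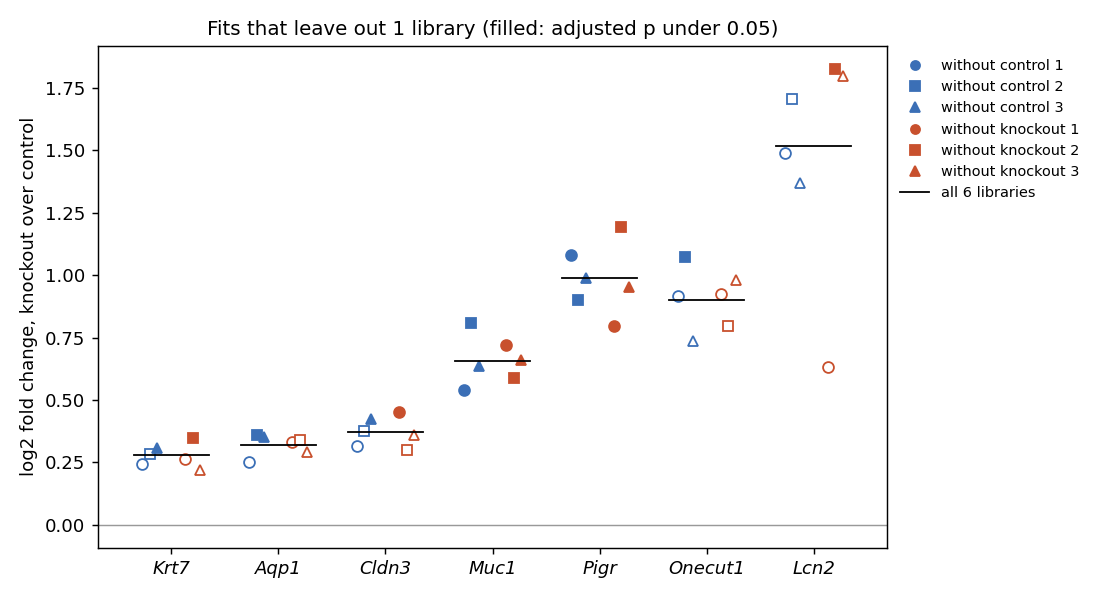
Log2 fold change of 7 genes in DESeq2 fits that each left out 1 library; filled marks have an adjusted p under 0.05 and the black line is the fit to all 6 libraries. Muc1 and Pigr are filled in all 6 fits, Krt7, Aqp1 and Cldn3 in 2 each, and Lcn2 is at 0.63 without knockout replicate 1.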

How the data were processed

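Polyadenylated RNA of 6 islet libraries was counted per gene by the authors, who deposited 1 table of raw counts without normalization. The submitters' processing notes name FastQC, STAR, featureCounts and DESeq2 and the build mm10; the file name records trimming with cutadapt, and settings are not given in the sources used here. Column names gave each library's genotype and number. All 55536 identifiers and symbols match GENCODE M21 (GRCm38), which gave positions and exon lengths. Of the 44344 nonzero counts of 20 or fewer, 85.0% are even, the pattern that counting both reads of a pair would give, which the sources do not state; the strand setting is not given in the sources used here.

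DESeq2 1.42.0 (R 4.3.3), the study's stated tool, was run with genotype alone on genes with at least 10 counts in total, with adjusted p under 0.05; edgeR 4.0.16 was the alternative. Both were also run on simulated counts with the same spread between libraries for every gene. This is simpler than these data, so no result is drawn from that run. The members, lists and the rule for named genes (the members, Cpa1, Klf4, and other listed genes past the threshold or leading a list) were chosen with earlier results of these data known. Within-group pairs of libraries differed by 40.0 to 120 times the sampling noise of independent counts (chi-square per degree of freedom). If both reads of a pair were counted, the noise is larger than this and the multiples smaller. Other alternatives were TMM factors, filters, a threshold of 0.1, Cook's distance and independent filtering off, a replicate block and each library left out. Chosen after seeing the data were Cpa1 as a covariate and halved counts. The 95% intervals are DESeq2's, from its SE, and include the spread between libraries. The floor of 3 counts covers counting error only and would be higher if both reads of a pair were counted.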

Additional observations from a re-analysis of the deposited data

How the results depend on the processing

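The count of 5 duct genes past the threshold in DESeq2 was 0 in edgeR, 3 without independent filtering, 3 with counts halved and rounded up, 1 with Cpa1 as a covariate, and 2 to 6 when 1 library was left out; 0 were lower in each of these fits. The lowest count, 2, came without control replicate 1 and without knockout replicate 3, 3 came without knockout replicate 1, and Muc1 and Pigr passed in each. Over all genes, 272 higher and 117 lower became 24 and 5 in edgeR, 419 and 195 at a threshold of 0.1, and 107 to 576 and 46 to 376 when 1 library was left out; the fewest came without knockout replicate 1 and the most without control replicate 3, and 69 lower came without knockout replicate 3. The cause was not tested.

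With the replicate number as a block, 4 duct genes passed, without Aqp1 (adjusted p = 0.0569), and Cpa1 passed at 1.17 (adjusted p = 3.73e-25). The deviations of same-numbered libraries from their group means correlated at -0.048, -0.059 and 0.010 over 15811 genes. Same-numbered libraries thus did not move alike over these genes as a whole. The correlations cannot show whether such libraries were collected or processed together. Cpa1 ran from 0.90 to 1.51 when 1 library was left out and passed only without control replicate 2.

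Among single genes, 649 values under the alternatives kept their side of the threshold and direction, 57 were weaker, 9 stronger and 20 reversed. None of the reversed genes was past the threshold and the cause was not tested. With Cpa1 as a covariate, Krt19 was -0.099, Ehf -0.108, Slc4a4 -0.121, Aqp5 -0.798, Cldn1 -0.042 and Tm4sf1 0.067, and under the block Slc26a3 was -0.441. When 1 library was left out, Krt8 ran from -0.021 to 0.063, Krt18 from -0.052 to 0.132, Cldn4 from -0.073 to 0.125, Cftr from -0.802 to 0.003, Slc4a4 from -0.024 to 0.12, Anxa1 from -0.012 to 0.272, Krt20 from -0.109 to 1.147, Slc26a3 from -0.882 to 1.579 and Aqp5 from -0.443 to 0.965. Over the 15811 genes the median log2 shift of knockout over control was -0.0038 with size factors, -0.00139 with TMM and 0.00196 with library totals.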
